A study of Mus musculus with 13 samples.

Results

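Genes for core spliceosome proteins, SR splicing factors and heterogeneous nuclear ribonucleoproteins (hnRNPs) were followed in 4 cell populations of the mouse. The members were all genes whose symbol begins with Snrp, Srsf, Hnrnp, Sf3a, Sf3b or Prpf in the array annotation. Each gene was read from 1 probe set that names that gene alone, the one with the highest mean log2 intensity over the 13 arrays. Of 59 matching symbols, Snrpn was left out and Hnrnph3 had no probe set of its own, which left 57 genes of the 17097 measured: 11 Snrp, 9 Srsf, 17 Hnrnp, 9 Sf3a or Sf3b and 11 Prpf genes. The genes were chosen by symbol and not by their measured values, though with earlier results of these data known.

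All cells came from C57BL/6 mice of the genotype Lgr5-EGFP-ires-CreERT2, in which GFP and a tamoxifen-inducible Cre are driven by the promoter of Lgr5, a stem cell gene of intestine and hair follicle. No tamoxifen treatment and no age of the mice is given in the sources used here. Crypt cells of the small intestine were sorted by GFP into GFP_High cells (4 arrays, titled GFPbright), which hold the stem cells, and GFP_Low cells (3 arrays, titled GFPdim), their close descendants. Villus cells (3 arrays) are the differentiated epithelium detached from the villi, and the hair follicle cells (3 arrays, titled GFPdim, from the hair bulge) are a second Lgr5-expressing population from skin. Each sort pooled 3 mice. The titles of the sorted samples hold a number that is read here as the code of a sort, though the titles do not say what it stands for. GFP_High 1 and GFP_Low 1 share a code, GFP_High 3, GFP_Low 2 and hair follicle 2 share another, and GFP_High 4 and GFP_Low 3 another. The reporter marks cells by Lgr5 promoter activity, so each sorted population is an average over the cells within its GFP gate.

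The spliceosome removes introns from pre-mRNA. Its U1, U2, U4 and U5 particles each carry a ring of Sm proteins, encoded by Snrpb, Snrpd1, Snrpd2, Snrpd3, Snrpe, Snrpf and Snrpg, and further Snrp genes encode proteins of the U1 and U2 particles. The Sf3a and Sf3b proteins belong to U2 and hold the branch point, and the Prpf proteins act in the tri-snRNP, in activation and in the catalytic steps. SR proteins (Srsf) bind exonic enhancers and favour exon inclusion, whereas many hnRNPs bind silencers or intronic sequence and also package, transport or stabilise mRNA. Dividing intestinal crypt cells and post-mitotic villus cells differ widely in how much new RNA and protein they make.

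Promoter windows of 300 bases, 250 before and 50 after the start of the gene, are shown for 4 members on which the results turn: Snrpf, a Sm gene with one of the lowest Villus levels relative to GFP_High, Hnrnpa1, the hnRNP gene with the largest such difference, Prpf38b, the only member called higher in Villus than in GFP_High, and its paralogue Prpf38a, which was lower there. The sequences are from RefSeq on GRCm38.p6, written 5′ to 3′ in the direction of the gene. The Snrpf window lies at chr10:93589609-93589908 on the minus strand, that of Hnrnpa1 at chr15:103240147-103240446 on the plus strand, that of Prpf38b at chr3:108911680-108911979 on the minus strand and that of Prpf38a at chr4:108579287-108579586 on the minus strand. Capitals mark the letters of the motifs that were searched and found: CCAAT or ATTGG (the NF-Y box) and GGAAG or CTTCC (the core of ETS factor sites).
Snrpf: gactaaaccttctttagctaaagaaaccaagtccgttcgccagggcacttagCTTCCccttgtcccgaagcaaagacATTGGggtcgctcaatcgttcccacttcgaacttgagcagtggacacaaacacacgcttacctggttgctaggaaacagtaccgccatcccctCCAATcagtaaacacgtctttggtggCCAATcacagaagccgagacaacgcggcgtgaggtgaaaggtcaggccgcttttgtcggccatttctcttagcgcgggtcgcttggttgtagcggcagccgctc
Hnrnpa1: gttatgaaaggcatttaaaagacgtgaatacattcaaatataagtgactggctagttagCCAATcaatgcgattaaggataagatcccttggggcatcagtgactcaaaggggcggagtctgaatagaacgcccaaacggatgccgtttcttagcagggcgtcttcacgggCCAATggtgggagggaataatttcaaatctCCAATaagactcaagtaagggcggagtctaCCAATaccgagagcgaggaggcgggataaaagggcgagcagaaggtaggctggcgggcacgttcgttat
Prpf38b: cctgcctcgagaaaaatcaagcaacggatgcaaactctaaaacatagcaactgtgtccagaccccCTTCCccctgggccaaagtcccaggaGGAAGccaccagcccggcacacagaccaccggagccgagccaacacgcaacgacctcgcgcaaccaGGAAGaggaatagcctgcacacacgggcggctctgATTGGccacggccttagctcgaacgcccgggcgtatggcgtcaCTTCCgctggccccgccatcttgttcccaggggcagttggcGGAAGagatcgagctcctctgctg
Prpf38a: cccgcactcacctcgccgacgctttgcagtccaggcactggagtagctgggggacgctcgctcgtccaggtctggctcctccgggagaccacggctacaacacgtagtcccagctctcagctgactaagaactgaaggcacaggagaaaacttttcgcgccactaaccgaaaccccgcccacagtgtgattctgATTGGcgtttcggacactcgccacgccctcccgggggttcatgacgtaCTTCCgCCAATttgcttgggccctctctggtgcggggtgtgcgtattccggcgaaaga
The Hnrnpa1 window held 4 CCAAT boxes and no ETS core, the Snrpf window 3 NF-Y boxes and 1 ETS core, and the Prpf38b window 1 NF-Y box and 5 ETS cores. Windows of this length were found for 50 of the 57 members, 64 windows in all since some genes have several starts, and were set beside all 32851 windows of the table. An NF-Y box stood in 51.6% of the member windows and in 37.4% of all windows, and by family in 71.4% of the 21 Hnrnp, 61.5% of the 13 Prpf, 37.5% of the 8 Sf3, 33.3% of the 12 Srsf and 30% of the 10 Snrp windows. The 8-letter YY1-type motif ATGGCGGC or GCCGCCAT stood in 10.9% against 2.24% and the E-box CACGTG in 14.1% against 7.15%, whereas the ETS core was common everywhere, in 75% against 71.4%. Both strands were searched, ATTGG and GGAAG can overlap by their GG, and several windows of 1 gene share sequence, so these shares are descriptions. A match of letters is not a binding site.

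The values are RMA intensities on a linear scale, and differences are given on the log2 scale, with their standard error (SE) from limma. A gene was called where its p, adjusted over all 17097 genes by Benjamini-Hochberg, was under 0.05. Some counts are also given at an unadjusted p under 0.05, for which no share of all genes is given. The p-values measure the spread between arrays of the same group, with 1 estimate per gene pooled over all 4 groups. A comparison of 2 groups therefore also carries the spread within the others. For the sorted cells the arrays of a group were separate sorts. The level of olfactory, vomeronasal and bitter taste receptor probe sets, which these cells are not known to use, gave the background: 95% of those 84 probe sets lay under an intensity of 7.9. By that measure 56 of the 57 members (98.2%) were above background in at least 1 group, against 69.8% of all genes; Srsf12 was under it in every group. Lgr5 read 532.8 to 793.1 in GFP_High, 12.6 to 66.1 in GFP_Low, 4.8 to 6.8 in Villus and 478.8 to 687.1 in hair follicle cells, and Alpi (alkaline phosphatase of enterocytes), Olfm4 (crypt stem cells) and Krt14 (keratinocytes) followed the titles. A separate label field on Lgr5 level goes against the title for GFP_High 2, GFP_Low 2 and GFP_Low 3. Their Lgr5 levels followed the titles, which were used. The field also reads high for the Villus arrays and for the hair follicle arrays, titled GFPdim. Only GFP_High 2, GFP_Low 2 and GFP_Low 3 are meant below by arrays of conflicting labels. GFP_Low 1 stood apart in quality: its 75th percentile of intensity was 37.6 against 40.6 to 52.1 on the others, and its Gapdh 3′ to 5′ ratio was 0.89 against 1.26 to 2.01. T lymphocyte markers were above background in Villus for 7 of 7 genes, with a summed intensity of 1712 to 2469.9, and in each other group for 1 of 7, Cd3e, with sums of 38.4 to 51.3.

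GFP_High cells had the highest mean level for 41 of the 57 members and Villus cells the lowest for 48. A stepwise order of GFP_High over GFP_Low over Villus held for 51 members (89.5%), compared with 29.4% of all genes (5030 of 17097). The most common full order, for 27 members, placed hair follicle cells between GFP_Low and Villus. For 10 members hair follicle cells stood above GFP_Low, for 10 more they stood above GFP_High, and for 4 they were lowest with the intestinal order intact. Neighbouring groups in these orders often did not pass the test: 50 members did not pass between GFP_High and GFP_Low. In some of these, such as Hnrnph1 and Snrpb, the values of the 2 groups still did not overlap. The heat map of all members by array shows the same pattern on each of the 3 Villus arrays, whereas hair follicle arrays vary more among themselves.

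**Figure D1:**
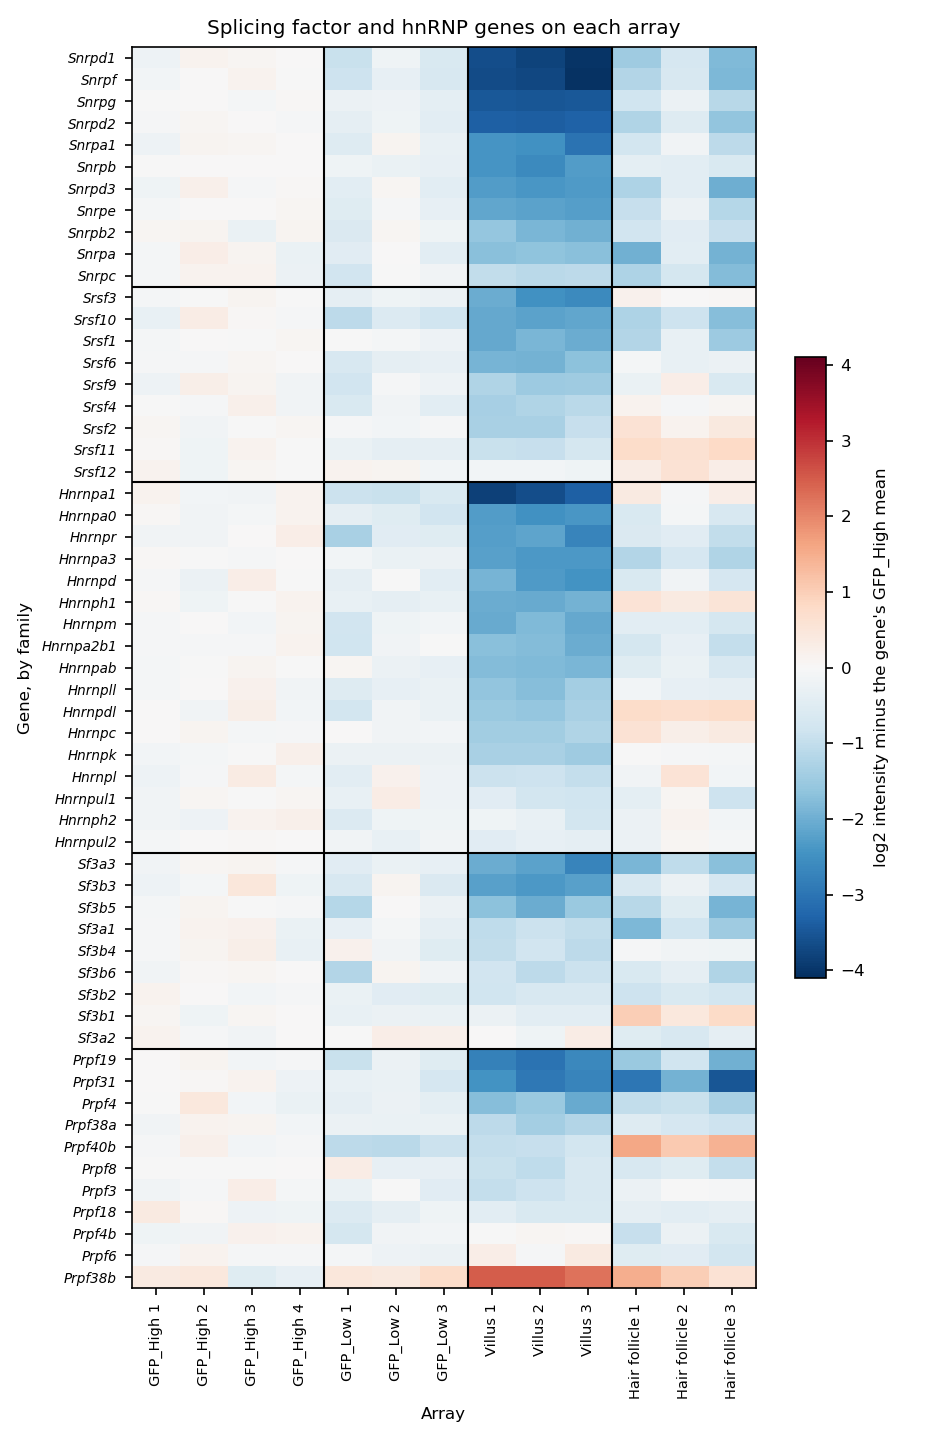
Heat map of the 57 members (rows, by family) on the 13 arrays (columns, by group). Colour is the log2 intensity minus the gene's mean over the 4 GFP_High arrays, blue lower and red higher. The Villus columns are blue for most genes, with Prpf38b as the red row, and the hair follicle columns mix blue Snrp rows with red rows such as Srsf11, Hnrnpdl, Sf3b1 and Prpf40b.

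Few members passed the test between GFP_Low and GFP_High cells. Prpf40b, a homologue of a yeast U1-associated protein, and Hnrnpa1, an exon-skipping factor and mRNA shuttle, were among 7 members that fell, and none rose. The difference was below 0 for 54 of the 57, and the share of all genes below 0 is not given here. Over all genes limma called 10.4% lower and 6.32% higher in GFP_Low, and 14.8% of genes above background were lower. The 7 of 57 lower (12.3%) were near these shares. At an unadjusted p under 0.05 limma gave 19 lower and 1 higher, with no share of all genes to set beside them. The median log2 difference of the members was -0.31, beside -0.04 over all genes, and -0.11 over the 11927 genes above background. Markers of mature cell types moved with the same arrays: the summed intensity of 5 goblet cell markers was 15422 to 17487 in GFP_Low and 887 to 1946 in GFP_High, that of 6 enteroendocrine markers 4270 to 5359 and 148 to 286, that of 3 Paneth cell markers 5025 to 9239.9 and 711 to 1438, and that of 6 enterocyte markers 6997 to 10318 and 1671 to 2667. Each of these markers was above background in both fractions, except Sst, an enteroendocrine hormone, in GFP_High. Their part in the differences between GFP_Low and GFP_High was not tested.

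Prpf40b read 34.3, 40.6, 32.2 and 34.1 on the 4 GFP_High arrays and 16.9, 16.2 and 19.1 on the 3 GFP_Low arrays. The groups did not overlap, and the log2 difference was -1.02 (SE 0.14, adjusted p = 0.000185), about 2.03-fold. Hnrnpa1 read 1057.4, 885.2, 877.3 and 1060.3 in GFP_High and 522.9, 515.2 and 631.9 in GFP_Low, again without overlap, a log2 difference of -0.80 (SE 0.15, adjusted p = 0.00216). Srsf10, an SR-like protein that represses splicing when dephosphorylated, went from 204.3, 305.9, 257.4 and 244.6 to 118.8, 169.0 and 142.4 (log2 difference -0.82, adjusted p = 0.0113). Hnrnpr, whose product binds mRNA in nucleus and axon, read 478.1, 478.1, 529.1 and 633.5 in GFP_High and 211.2, 382.1 and 372.8 in GFP_Low; the lowest value was that of GFP_Low 1. The remaining 3 that fell were Hnrnpa0 (log2 difference -0.55), Srsf6 (-0.46) and Sf3b2 (-0.41), a component of the U2 particle. Without GFP_Low 1, the array that stood apart in quality, 4 members were called, and Hnrnpr (adjusted p = 0.132), Srsf10 (adjusted p = 0.0555) and Srsf6 (adjusted p = 0.074) no longer passed. Prpf40b and Hnrnpa1 kept their calls under every alternative that was run. Hnrnpr also lost its call without GFP_High 3 or GFP_High 4 (adjusted p = 0.0543 and 0.0776), Hnrnpa0 without GFP_High 1, GFP_High 4 or GFP_Low 3 (0.0635 to 0.119), and Sf3b2 without GFP_High 1, GFP_High 2, GFP_Low 2 or GFP_Low 3 (0.0507 to 0.0823). Hnrnpa0 and Sf3b2 also lost their calls without the 3 arrays of conflicting labels (adjusted p = 0.294 and 0.394) and after quantile normalization (0.0512 and 0.0844), and Srsf10 and Srsf6 with the mean of all probe sets (0.0523 and 0.127). With the sort as a block, over the 3 sorts that gave both fractions, 8 members were lower and none higher, and Sf3b2 lost its call (adjusted p = 0.0688).

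Within the sorts, the median member difference between GFP_Low and GFP_High was -0.35, -0.27 and -0.27, against -0.11, -0.03 and -0.02 over all genes. In these 3 sorts 50, 48 and 53 of the 57 members were below 0. The difference was negative in all 3 sorts for 41 members and positive in all 3 for 1. The median over all genes was below 0 in each sort as well. The share of all genes negative in all 3 sorts is not given here. By family, limma called none of the 11 Snrp genes (3 lower at an unadjusted p under 0.05; median -0.29), 2 of 9 Srsf genes (median -0.33), 3 of 17 Hnrnp genes (-0.31), 1 of 9 Sf3 genes (-0.36) and 1 of 11 Prpf genes (-0.33), every one of them lower. The pooled spread in this test includes that of the hair follicle arrays, where the Snrp medians relative to GFP_High were -1.2, -0.45 and -1.63. The share of calls that were higher over all genes was 37.9% as deposited and 49.7% after quantile normalization, 53.2% without GFP_Low 1 and 27% without the 3 arrays with conflicting labels.

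Most members were lower in Villus than in GFP_High cells, by amounts that differed widely between them. Of the 57 members 51 were lower and 1, Prpf38b, was higher, beside 26.3% of all genes lower and 22.6% higher. Among genes above background the shares were 36.8% lower and 29.7% higher. The median member difference was -1.70 on the log2 scale, and that of all genes was 0.02. Against GFP_Low, 45 members were lower and 2 higher (all genes, 21.3% lower and 20.8% higher), with a median of -1.29. Both comparisons share the 3 Villus arrays. In a bulk sample, fewer cells of a type with high levels and less RNA of these genes per cell cannot be told apart.

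**Figure D2:**
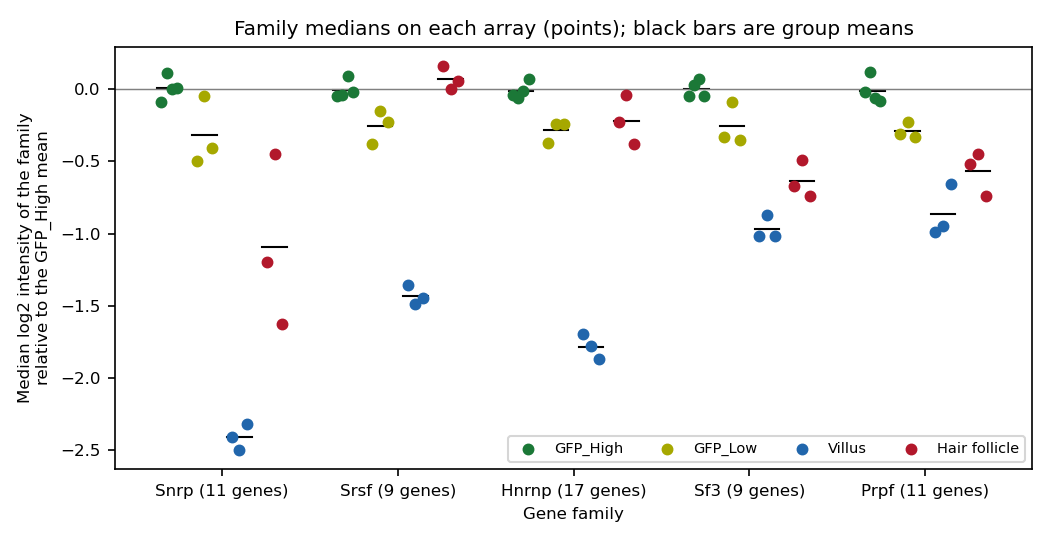
Median log2 intensity of each gene family relative to the GFP_High mean (y axis) on each of the 13 arrays (points, coloured by group), by family (x axis); black bars are group means. Villus means lie lowest in every family, with arrays from -2.50 to -2.32 for Snrp, and the 3 hair follicle arrays lie at 0.00 to 0.16 for Srsf but at -1.63 to -0.45 for Snrp; in Prpf the Villus and hair follicle arrays overlap.

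The Snrp family stood lowest in Villus. All 11 of its genes were lower than in GFP_High, by -1.06 to -3.81 (median -2.44), and all 11 were lower than in GFP_Low (median -2.18). The Sm ring genes Snrpd1 and Snrpf showed the largest differences. Snrpf read 470.2, 514.1, 561.8 and 509.9 in GFP_High, 284.6, 408.7 and 326.7 in GFP_Low and 40.5, 38.7 and 31.1 in Villus, so Villus levels were 14.0-fold below GFP_High (log2 difference -3.81, SE 0.23, adjusted p = 4.12e-09). Snrpd1 read 546.7, 687.9, 656.6 and 629.6 in GFP_High, 337.0, 558.0 and 407.6 in GFP_Low and 50.1, 45.7 and 39.0 in Villus, a log2 difference of -3.81 between Villus and GFP_High (SE 0.23, adjusted p = 5.91e-09). On every Villus array both genes were under every crypt value.
Snrpg went from 2089.8, 2142.2, 1993.3 and 2168.1 in GFP_High to 188.7, 185.0 and 186.7 in Villus (log2 difference -3.49), with the 3 Villus arrays almost equal. Snrpd2 went from 1620.5, 1751.7, 1665.8 and 1626.8 to 164.8, 159.2 and 166.3 (log2 difference -3.35). The other ring genes were lower by -2.44 (Snrpb), -2.34 (Snrpd3) and -2.21 (Snrpe). Of the proteins specific to U2, Snrpa1 was lower by -2.66 and Snrpb2 by -1.80. The U1 genes Snrpa, at -1.70, and Snrpc, at -1.06, had the smallest differences among the 11 Snrp genes. Snrnp70, a further U1 gene outside the symbol rule, had means of 300.5 in GFP_High and 61.2 in Villus. A difference between U1 and U2 genes was not tested. Snrpc read 446.8, 523.4, 524.4 and 397.1 in GFP_High and 231.6, 217.6 and 225.0 in Villus, still without overlap.

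Among the hnRNP genes 16 of 17 were lower in Villus than in GFP_High (median -1.82) and 15 than in GFP_Low (median -1.51). Hnrnpa1 had the largest difference: 68.1, 77.4 and 94.8 on the Villus arrays, against the GFP_High and GFP_Low values above, 12.2-fold below GFP_High (log2 difference -3.61, SE 0.15, adjusted p = 1.41e-10). The other probe sets of Hnrnpa1 gave -3.88 and -3.43. Hnrnpa0, which binds AU-rich elements of mRNA, Hnrnpr and Hnrnpa3 were lower by -2.40, -2.39 and -2.32. Hnrnpc, which coats nascent transcripts at uridine tracts, read 2843.1, 3056.6, 2694.3 and 2725.1 in GFP_High and 1042.6, 1041.4 and 1202.4 in Villus (log2 difference -1.37). Hnrnpk, a binder of C-rich sequence, read 1415.2, 1455.1, 1494.8 and 1758.5 and 611.7, 600.8 and 561.1 (log2 difference -1.37). Hnrnph2 was the exception: its Villus values of 316.1, 287.8 and 211.9 overlapped the GFP_High values of 319.9, 307.3, 395.6 and 408.3, and its difference of -0.40 (SE 0.17) did not pass (adjusted p = 0.0658). Hnrnpul2 passed with a small difference of -0.39 (adjusted p = 0.00802).

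Of the SR genes 8 of 9 were lower in Villus than in GFP_High (median -1.40), and the same number were lower than in GFP_Low (median -1.14). Srsf3, the smallest SR protein and an mRNA export adaptor, read 1342.3, 1413.0, 1535.4 and 1426.0 in GFP_High, 1096.0, 1260.4 and 1213.4 in GFP_Low and 345.1, 256.9 and 233.5 in Villus (Villus against GFP_High, log2 difference -2.38, SE 0.13, adjusted p = 2.59e-09). Srsf1, an archetypal SR protein, read 1545.5, 1656.7, 1636.3 and 1737.4 in GFP_High and 387.4, 447.1 and 399.7 in Villus (log2 difference -2.0). The smallest called differences were those of Srsf11 (-0.86) and Srsf2 (-1.21). Srsf12 was under background in every group and is given no fold.

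The Sf3 and Prpf genes had smaller median differences. With the mean of all probe sets of a gene, the order of some families changed. The medians of Villus against GFP_High were then -2.57 (Snrp), -1.40 (Srsf), -1.31 (Hnrnp), -0.88 (Prpf) and -0.60 (Sf3). The values that follow are again from the brightest probe set. In Villus 8 of 9 Sf3 genes were lower than in GFP_High (median -0.96), and 5 than in GFP_Low (median -0.71). Sf3a3 read 160.8, 186.3, 194.3 and 172.1 in GFP_High and 43.0, 38.7 and 27.0 in Villus (log2 difference -2.32, SE 0.20, adjusted p = 1.6e-07) and Sf3b3 was lower by -2.27. Sf3b1, which clamps the branch point and is a frequent target of mutation in leukaemia, differed little within the intestine: 1225.5, 1020.4, 1208.7 and 1156.7 in GFP_High, 930.8, 963.3 and 961.4 in GFP_Low and 975.6, 845.7 and 856.2 in Villus (Villus against GFP_High, -0.37, adjusted p = 0.0367; Villus against GFP_Low, -0.10, adjusted p = 0.657). Sf3a2 stayed near background, at 9.5, 8.3, 7.8 and 8.7 in GFP_High and 8.6, 7.5 and 10.5 in Villus, and did not pass.
Among the Prpf genes 8 of 11 were lower and 1 higher than in GFP_High (median -0.88), and 6 were lower and 2 higher than in GFP_Low (median -0.58). Prpf19, the ubiquitin ligase of the complex that stabilises the active spliceosome, read 814.6, 872.7, 750.2 and 783.5 in GFP_High, 428.1, 687.0 and 575.3 in GFP_Low and 117.6, 99.3 and 129.1 in Villus (Villus against GFP_High, -2.81, SE 0.23, adjusted p = 1.07e-07). Prpf31, which joins the U4 and U6 particle to U5 and is mutated in inherited retinal degeneration, was lower by -2.70, from 180.6, 184.2, 195.5 and 154.5 to 32.6, 23.1 and 27.1. Prpf8, the scaffold of the catalytic centre, was lower by -0.88, and the tri-snRNP genes Prpf3 and Prpf4 by -0.84 and -1.77. Prpf6, another tri-snRNP protein, read 185.6, 146.2 and 196.1 in Villus, 147.9, 167.9, 146.2 and 147.3 in GFP_High and 143.0, 131.4 and 129.6 in GFP_Low: it passed as higher against GFP_Low (0.38, adjusted p = 0.0391) and did not pass against GFP_High (0.20, adjusted p = 0.228). Its call against GFP_Low was lost when any one of GFP_Low 2, GFP_Low 3, Villus 1 or Villus 3 was left out (adjusted p from 0.0952 to 0.148).

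Prpf38b ran opposite to the family. Its intensity was 18.7, 19.3, 10.3 and 11.5 in GFP_High, 19.9, 19.1 and 24.2 in GFP_Low and 79.6, 79.7 and 67.7 in Villus, so that every Villus array exceeded every crypt array (Villus against GFP_High, log2 difference 2.39, SE 0.24, adjusted p = 1.07e-06, 5.25-fold; against GFP_Low, 1.85, adjusted p = 4.07e-05). The other probe set of Prpf38b gave 0.89 between Villus and GFP_High (adjusted p = 0.017). Its paralogue Prpf38a read 198.6, 239.9, 238.2 and 201.2 in GFP_High and 103.3, 82.7 and 95.7 in Villus, a log2 difference of -1.23 in the other direction (SE 0.13, adjusted p = 1.17e-06). Prpf4b, a kinase of spliceosomal proteins, gave no call with its brightest probe set (0.04), and its other 5 probe sets split, 3 called lower (-1.34, -0.88 and -0.52), 1 called higher (0.57) and 1 not passing (0.24).

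**Figure D3:**
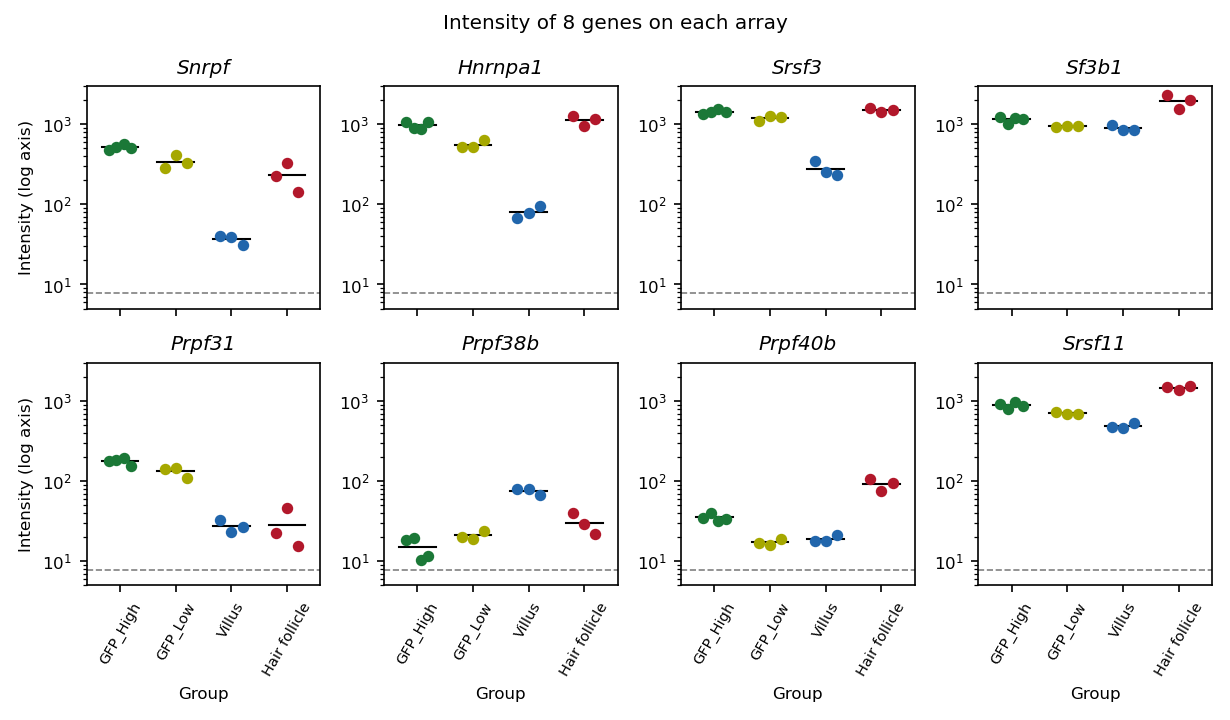
Intensity (y axis, log scale) of 8 members on each array (points), by group (x axis); the dashed line is the background level of 7.9. Snrpf, Hnrnpa1 and Srsf3 drop in Villus, Prpf38b is highest in Villus, Prpf31 is low in both Villus and hair follicle cells, and Sf3b1, Prpf40b and Srsf11 are highest in hair follicle cells.

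Other features moved with the Villus arrays, and their part in these differences was not tested. The 17 measured genes of cell division (such as Mki67, Top2a and the Mcm genes) were all lower in Villus than in GFP_High, beside 26.3% of all genes. Their summed intensity was 755 to 917 in Villus, 6824 to 8059.7 in GFP_Low and 10151 to 11411 in GFP_High. On the 3 Villus arrays T lymphocyte markers were present (7 of 7 above background), Ptprc among them at 113.1 to 188.2. Smooth muscle markers were 4 of 4 above background by their mean over the Villus arrays. Their summed intensity was 29.9 to 306, so the lowest Villus array lay near the hair follicle sums of 27.4 to 28.4. The 11 measured immediate early and heat shock genes were also lower in Villus for 10 of 11, beside the same 26.3% of all genes. Their sums were 3138 to 4217 against 10346 to 17836 in GFP_High. The methods' test, run between Villus and GFP_High on the same log2 values, gave 50 members lower and 1 higher at its unadjusted threshold, and 51 and 1 after Benjamini-Hochberg adjustment. The comparisons with GFP_High, of Villus and of hair follicle cells, use the same 4 arrays as control, so they are set side by side without a measure of likeness.

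In hair follicle cells the median difference from GFP_High varied by family. Compared with GFP_High, 35 members were lower, 9 were higher and 13 did not pass, beside 29.1% of all genes lower and 19.4% higher, and 40.9% and 26.2% of genes above background. The median member difference was -0.53 on the log2 scale and that of all genes -0.06. All 11 Snrp genes were lower (median -1.13, from -1.45 to -0.48), as were 7 of 9 Sf3 genes (median -0.74) and 8 of 11 Prpf genes (median -0.60). Of the hnRNP genes 7 were lower and 3 higher (median -0.27, and -0.07 when all probe sets of a gene are averaged). These shares, 41.2% lower and 17.6% higher, were near 40.9% of genes above background and 19.4% of all genes. Of the Srsf genes 2 were lower and 3 higher (median 0.06), the higher ones including Srsf12, which was under background in every group. The 9 higher members (15.8%) were a smaller share than the 19.4% of all genes. The hair follicle cells come from another organ, so tissue and stem cell state cannot be told apart in this comparison.

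**Figure D4:**
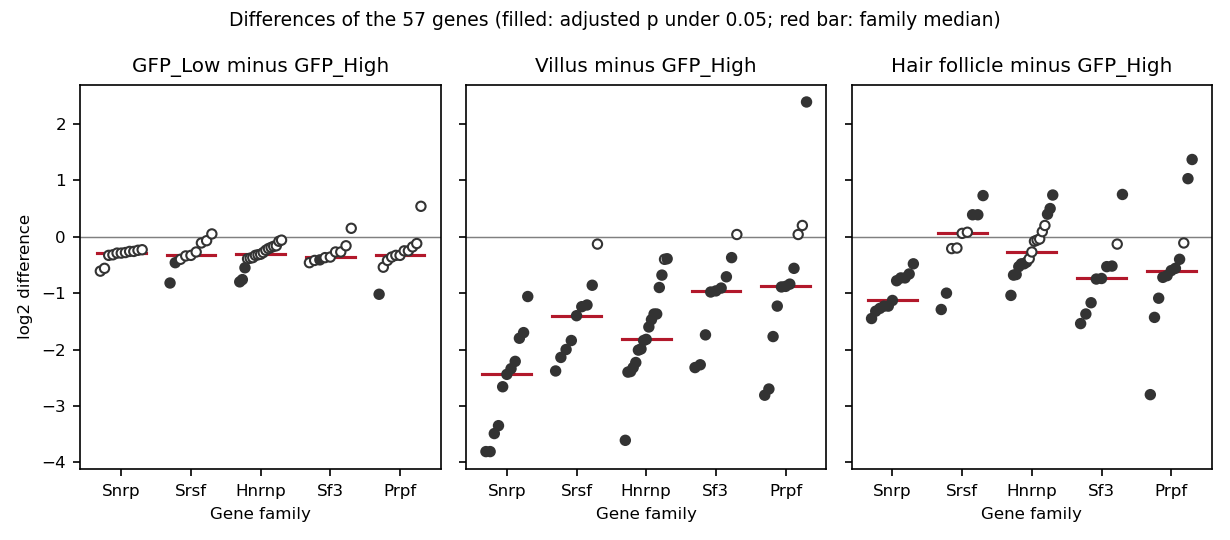
Log2 difference of each of the 57 members (points, y axis) by family (x axis) for GFP_Low, Villus and hair follicle cells against GFP_High; filled points are called at an adjusted p under 0.05 and red bars are family medians. Medians lie between -0.36 and -0.29 in every family for GFP_Low, between -2.44 (Snrp) and -0.88 (Prpf) for Villus, and between -1.13 (Snrp) and 0.06 (Srsf) for hair follicle cells.

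Snrpf read 223.9, 328.3 and 142.6 on the 3 hair follicle arrays, less than on any GFP_High array and more than on any Villus array (hair follicle against GFP_High, -1.23, SE 0.23, adjusted p = 0.000336). Snrpa, the U1 protein that binds a stem loop of U1 RNA, had the largest difference in the family, with 79.0, 227.6 and 80.0 in hair follicle cells against 291.3, 370.7, 333.4 and 253.2 in GFP_High (-1.45, SE 0.30, adjusted p = 0.000867). On both genes hair follicle 2 was the highest of the 3 arrays. The Snrp median relative to GFP_High was -1.20, -0.45 and -1.63 on hair follicle 1, 2 and 3, and the summed cell division genes were 3712.4, 5191.6 and 2695.5 on the same arrays. Hair follicle 2 shared the code in its title with GFP_High 3, which does not show that skin and crypt cells were sorted together. Between this pair of arrays the median difference of the members was -0.37 (all genes -0.11), and 42 of 57 were below 0. The family medians were -0.45 (Snrp), -0.10 (Srsf), -0.01 (Hnrnp), -0.52 (Sf3) and -0.41 (Prpf).

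Prpf31 had the lowest hair follicle level relative to GFP_High of any member: 22.9, 46.9 and 15.5 against 180.6, 184.2, 195.5 and 154.5, a log2 difference of -2.80 (SE 0.28, adjusted p = 9.97e-07, 6.97-fold). Hair follicle and Villus values of Prpf31 overlapped (-0.10, adjusted p = 0.812). Sf3a3 read 48.4, 86.5 and 54.5 (log2 difference -1.54, SE 0.20) and Sf3a1, the U2 subunit that contacts U1, read 53.9, 110.4 and 69.7 against 186.3, 211.0, 218.3 and 160.0 in GFP_High (-1.37, adjusted p = 4.49e-05). Prpf19 was lower by -1.43 and Snrpd1 by -1.32. Among SR genes Srsf10 (103.6, 140.0 and 74.7, log2 difference -1.29) and Srsf1 (709.0, 1328.7 and 587.4, log2 difference -1.0) were lower, and on Srsf1 hair follicle 2 was again well above the other two. Hnrnpa3 had the largest hnRNP difference, -1.04.

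The members that were higher in hair follicle cells came from 4 families. Prpf40b read 105.2, 74.5 and 94.9, above all intestinal arrays (1.37 against GFP_High, SE 0.14, adjusted p = 1.24e-06; 2.26 against Villus). Sf3b1 read 2318.4, 1554.0 and 1991.8, higher than GFP_High by 0.75 (SE 0.14, adjusted p = 0.000317) while 7 of the 8 other Sf3 genes were lower. Srsf11 read 1498.6, 1364.4 and 1546.0 against 910.7, 786.3, 973.0 and 873.0 in GFP_High (0.73, SE 0.11, adjusted p = 5.97e-05). Hnrnpdl, a paralogue of the AU-rich element binder Hnrnpd, read 5850.1, 5607.7 and 5871.2 against 3518.4, 3113.4, 4048.4 and 3187.3 (0.74, adjusted p = 0.000708), whereas Hnrnpd itself was lower (-0.48, adjusted p = 0.0377). Hnrnph1, which binds runs of G, was higher by 0.50, Hnrnpc by 0.40 and Srsf2 by 0.39. Prpf38b was higher in hair follicle cells too, at 40.4, 29.0 and 21.7 (1.03, adjusted p = 0.00244). The ninth was Srsf12, under background in every group. Hnrnpc lost its call without hair follicle 1 (adjusted p = 0.0637).

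Several abundant members showed no called difference between these stem cell populations. Hnrnpa1 read 1252.4, 942.5 and 1167.2 in hair follicle cells (log2 difference 0.20, SE 0.15, adjusted p = 0.307). Hnrnpk differed by -0.04 (SE 0.10), Srsf3 by 0.08 (SE 0.13) and Srsf4 by 0.06 (SE 0.13), and in each the values of the groups overlapped. Missing the threshold does not show equal levels.

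Against Villus, hair follicle cells had higher levels of most members, 42 higher and 4 lower, beside 26.9% of all genes higher and 27.4% lower, with a median of 1.16 (all genes -0.04). All 9 Srsf genes were higher, among them Srsf12, which was under background in both groups, as were 15 of 17 Hnrnp genes (median 1.34), 9 of 11 Snrp genes (median 1.96), 4 of 9 Sf3 genes and 5 of 11 Prpf genes. Hnrnpa1 had the largest difference, 3.81 (SE 0.16, adjusted p = 6.3e-11), followed by Snrpg (2.76), Snrpf (2.58), Hnrnph1 (2.51), Snrpd1 (2.5) and Srsf3 (2.46). The 4 members that were lower were Prpf38b (-1.36), Prpf6 (-0.76), Prpf4b (-0.64) and Sf3a2 (-0.55), the last of them with levels near background. Prpf6 read 108.0, 111.1 and 90.8 in hair follicle cells and 185.6, 146.2 and 196.1 in Villus, without overlap. The call on Prpf4b was lost without hair follicle 1 (adjusted p = 0.0701) and with the mean of its probe sets (0.299).

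The hair follicle arrays differed from the intestinal arrays in other ways, whose part in these results was not tested. Every one of the 11 measured genes of the immediate early and heat shock list, a set known to react to tissue dissociation, was higher than in GFP_High (all genes, 19.4% higher). Their sums were 48549 to 64030.1 against 10346 to 17836. Of the cell division genes 16 of 17 were lower, beside 29.1% of all genes. Melanocyte markers were above background for 4 of 5 genes, with sums of 148 to 654 against 28.9 to 60.5 in the intestinal groups; Tyr, the pigment enzyme that defines them, was not above background.

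For 38 members the array holds further probe sets, 81 in all, which read other stretches of the transcripts. Between Villus and GFP_High 69 of the 81 had the same sign as the probe set used, 56 were called lower and 2 higher, and none was called in the direction opposite to a called member. Between hair follicle cells and GFP_High 57 of 81 had the same sign, and 3 were called against the probe set used: 1 of Hnrnpa2b1 (0.40, where the probe set used gave -0.67), 1 of Hnrnpa3 (0.77, against -1.04) and 1 of Hnrnpr (0.39, near background). Srsf3 gave no call in hair follicle cells with its brightest probe set, but one other probe set gave 2.46 (adjusted p = 4.91e-06) and another -0.67 (adjusted p = 0.0189). For Srsf11 the others gave -0.31 (not passing) and 2.03, for Sf3b1 -0.32 (not passing) and 1.07, and for Hnrnpdl 1.19, 0.86 and -0.10 (not passing). Probe sets of 1 gene can read different isoforms, and some share sequence with other transcripts, so the direction in hair follicle cells depends on the probe set for these genes.

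Other genes of RNA splicing were described beside the members. Of 50 measured further spliceosome genes, 41 were lower and 1 higher in Villus than in GFP_High (median -1.12), and 25 were lower and 4 higher in hair follicle cells (median -0.49); over all genes 26.3% were lower in Villus and 29.1% in hair follicle cells. Lsm5, of the ring that binds the end of U6 RNA, read 200.5, 241.8, 248.2 and 286.4 in GFP_High and 31.5, 31.1 and 23.5 in Villus (-3.09), and the prolyl isomerase Ppie was lower by -2.99. Slu7, a second-step factor, was the gene that was higher (0.37, adjusted p = 0.016). In hair follicle cells the cyclophilins Ppil1 (-2.48) and Ppih (-2.44) were lowest relative to GFP_High, and Syf2 (1.31) and Smndc1 (1.04) highest.

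Machinery that loads Sm rings onto snRNA moved in the same direction as the Sm genes: 12 of 14 measured assembly genes were lower and 1 higher in Villus (median -2.01), and 12 were lower and none higher in hair follicle cells (median -1.07; at an unadjusted p under 0.05 limma also gave none higher). Over all genes 26.3% were lower and 22.6% higher in Villus, and 29.1% lower and 19.4% higher in hair follicle cells. Prmt5, the methyltransferase that modifies Sm proteins before assembly, read 168.2, 171.3, 197.8 and 177.3 in GFP_High, 126.1, 150.2 and 99.9 in GFP_Low, 10, 8.6 and 7.1 in Villus and 50.5, 88.0 and 42.2 in hair follicle cells. Its Villus level was 21.0-fold below GFP_High (-4.39, SE 0.22, adjusted p = 8.3e-10), with 1 of the 3 Villus arrays under the background level. Its cofactor Wdr77 was lower in hair follicle cells by -1.89. Gemin6, of the SMN complex, was lower by -3.18 in Villus and -3.12 in hair follicle cells, while Gemin7 was higher in Villus (0.59, adjusted p = 0.00968).

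**Figure D5:**
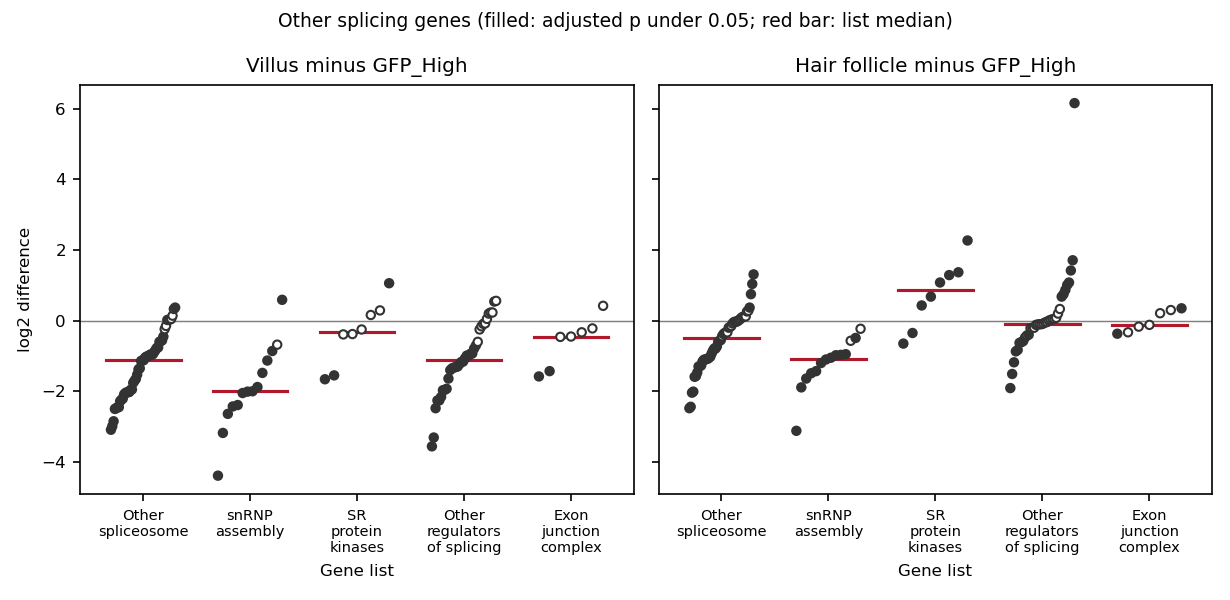
Log2 difference of each gene (points, y axis) in 5 lists of other splicing genes (x axis) for Villus and hair follicle cells against GFP_High; filled points are called at an adjusted p under 0.05 and red bars are list medians. The assembly list lies lowest in Villus with a median of -2.01, and the SR protein kinases are the list with a positive median in hair follicle cells, 0.88.

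Of 8 measured kinases that phosphorylate SR proteins, 2 were lower and 1 higher in Villus (median -0.31), near the shares of all genes (26.3% lower and 22.6% higher). In hair follicle cells 6 were higher and 2 lower (median 0.88; all genes, 19.4% higher and 29.1% lower). A difference between the kinases and the SR genes was not tested. Srpk2 read 71.8, 48.9, 44.9 and 55.0 in GFP_High, 20, 21.0 and 15.1 in Villus and 202.8, 309.8 and 287.9 in hair follicle cells (-1.55 and 2.27 against GFP_High). Clk1, whose own splicing responds to heat and osmotic stress, was higher in hair follicle cells by 1.37, from 1107.3, 999.8, 991.6 and 1331.0 to 3454.9, 2256.6 and 2950.0, and Clk2 was lower in Villus by -1.66. Srpk1 was lower in hair follicle cells (-0.65), as was Clk2 (-0.35), and Dyrk1a was higher in Villus (1.06).

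Of 36 other regulators 25 were lower and 1 higher in Villus (median -1.12; all genes, 26.3% lower and 22.6% higher). In hair follicle cells 10 were lower and 8 higher (median -0.09), near the shares of all genes (29.1% lower and 19.4% higher). Qk, a regulator of mesenchymal and glial splicing, read 8.1, 8.4, 7.9 and 13.2 in GFP_High, 9.5, 8.2 and 9.1 in GFP_Low and 13.3, 14.4 and 6.5 in Villus, near background, but 763.4, 610.1 and 609.5 in hair follicle cells (6.16, SE 0.25, adjusted p = 6.81e-11). Celf2 was higher there by 1.71, whereas Mbnl3, a muscleblind protein, was lower by -1.91, and lower in Villus by -3.56. Syncrip, also known as hnRNP Q and close to Hnrnpr in sequence, read 301.4, 205.8, 339.7 and 262.7 in GFP_High, 31.1, 27.7 and 23.9 in Villus and 336.8, 362.3 and 197.7 in hair follicle cells. The one regulator that was higher in Villus, Nova2, had a mean under background there, with 8.0 on Villus 1 just above it, and Khdrbs3, lower in hair follicle cells (-1.51), overlapped with 1 GFP_High array. Of 7 exon junction and surveillance genes, 2 were lower, near the 26.3% of all genes, and none higher in Villus (Rbm8a -1.58 and Eif4a3 -1.43; at an unadjusted p under 0.05 limma gave 4 lower and 1 higher), and in hair follicle cells Rbm8a was higher (0.35) and Smg5 lower (-0.37).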

How the data were processed

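RNA from 13 samples was hybridised to Affymetrix HT MG-430 PM arrays, and the authors summarised the probes with the RMA-sketch algorithm of Affymetrix Power Tools, whose version none of the sources used here gives. The authors' deposited values are normalized intensities on a linear scale for 45141 probe sets; here log2 of each deposited intensity was taken without a further scaling. Of these probe sets 28898 name 1 gene in the platform annotation, 551 several and 15692 none. Where several named the same one of the 17097 genes, the brightest by mean log2 was kept. The genes' symbols and promoter windows came from RefSeq (GRCm38.p6).

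All 13 arrays were fitted in 1 model with 4 groups in limma 3.58.1 (R 4.3.3; lmFit, eBayes), p-values were adjusted over all genes by the Benjamini-Hochberg method, and figures were drawn with matplotlib 3.10.9 (Python 3.11.15). Groups followed the sample titles. The titles carry a code that is read here as the sort. Deviations from the group means correlated within the 3 sorts that gave both fractions (0.291, 0.451 and 0.32). Correlations between arrays of different sorts were not computed, so these values do not show that the code pairs the samples or what it stands for. A fit with the sort as a block was run as an alternative. The members and lists were chosen with earlier results of these data known. Named were, per comparison, the 6 largest called differences in each direction without overlap, the largest and any opposing call of each family (at most 3), and the 2 largest of each further list; other genes were named to complete their family, after their values were seen. The scripts were tested on simulated data. The number of arrays limits the precision, since arrays have no read depth.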

Additional observations from a re-analysis of the deposited data

Results flagged for a closer look

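Among 36 groups of 4 arrays that were looked at for an array far from the others, 1 stood out. Prpf6 in GFP_High 2 read 167.9 while the other 3 GFP_High arrays lay at 146.2 to 147.9, so that the gap made up 0.916 of the range of the group, above Dixon's critical value at 95% for 4 values. Chance gives about 1 such group in 20, or 1.8 of 36.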

How the results depend on the processing

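No direction of a summary or of a named member reversed under any of the alternatives that were run. The count of members lower in GFP_Low than in GFP_High was 7 in the fit reported, 13 with 16 added to each intensity, 10 without the 3 arrays of conflicting labels, and 4 to 9 when single arrays were left out, 4 of them without GFP_Low 1. With the replicate block of the sort it was 8, and 5 on the same 6 arrays without the block, a fit added after seeing the data. The 2 members higher in Villus than in GFP_Low became 1 (Prpf38b) after quantile normalization, with the mean of all probe sets, or with only those groups in the fit, and 1 to 2 when single arrays were left out. The median member difference between Villus and GFP_Low, -1.29 in the fit reported, was -1.39 after quantile normalization, -1.15 with 16 added, -1.04 with the mean of all probe sets and -1.14 without the conflicting arrays, and from -1.45 to -1.19 when single arrays were left out. Between Villus and GFP_High the median of -1.70 became -1.52 with 16 added, -1.27 with the mean of all probe sets and -1.61 without the conflicting arrays, and ranged from -1.75 to -1.59 with single arrays left out. Between hair follicle and Villus the median of 1.16 became 1.32 after quantile normalization and 0.92 with the mean of all probe sets, and ranged from 1.0 to 1.31. The cause of these shifts was not tested. Of the values of named members under the alternatives, 22 lost the call in GFP_Low against GFP_High, 8 in Villus against GFP_Low, 1 in hair follicle against GFP_High and 3 in hair follicle against Villus, and none in Villus against GFP_High. Levels near the background of 7.9, such as those of Srsf12 and Sf3a2, give little information about differences.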

Other observations

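Between GFP_Low and GFP_High cells 10.4% of all genes were called lower and 6.32% higher. Only the adjusted counts of the further splicing lists are read beside these shares. For the unadjusted counts no share of all genes is given. Of 50 further spliceosome genes 9 were lower and none higher (limma; at an unadjusted p under 0.05, 20 lower and none higher; median -0.33), and of 14 snRNP assembly genes 6 were lower and none higher (9 and none unadjusted; median -0.56). Of 36 other regulators 6 were lower and none higher (13 and none unadjusted; median -0.27), Syncrip among them (log2 difference -0.69, adjusted p = 0.0394). Slu7, which was higher in Villus than in GFP_High, was lower in GFP_Low than in GFP_High (-0.72, adjusted p = 0.000694), with 71.9 to 76.2 on the GFP_Low arrays and 113.3 to 144.6 on the GFP_High arrays. Of 8 SR protein kinases 1, Clk2, was lower (-0.72, adjusted p = 0.00057), and of 7 exon junction and surveillance genes limma called none (2 lower and none higher at an unadjusted p under 0.05). Of 17 cell division genes 1 was lower by the same test (3 unadjusted), with a list median of -0.77. Their summed intensity did not overlap, at 6824 to 8059.7 in GFP_Low and 10151 to 11411 in GFP_High. The test takes 1 spread per gene over all 4 groups, and hair follicle arrays varied widely on such genes, Top2a at 37.1, 223.6 and 15.4. The part of that spread in the few calls was not tested. Of 11 immediate early and heat shock genes 1 was higher.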
